A study of Mus musculus with 6 samples.

Results

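The genes described here encode the nonmuscle actin and myosin cytoskeleton, and were followed in E9.5 mouse hearts that had lost filamin C, an actin crosslinker of heart and skeletal muscle. They are 10 of the 54356 genes measured: the cytoplasmic actins *Actb* and *Actg1*, the nonmuscle myosin II heavy chains *Myh9* and *Myh10*, the myosin regulatory light chain *Myl12a*, the alpha-actinins *Actn1* and *Actn4*, the tropomyosin *Tpm4*, the actin monomer binding peptide *Tmsb4x* and the filament severing protein *Cfl1*. The list was selected on the FlncgKO against control values of these same libraries, so every difference between groups in these 10 genes is given as a description and not as evidence for itself. Polyadenylated RNA was sequenced in 3 control and 3 FlncgKO libraries of hearts from E9.5 embryos of the C57BL/6 strain, whole hearts by the labels, whereas the study's methods allow for isolated ventricles. FlncgKO is the global knockout, in which Sox2Cre, a Cre active throughout the embryo proper, deletes floxed *Flnc* exons, so that every cell type of the heart carries the deletion. The controls were littermates whose labels read only control, with no further genotype, and the number of hearts in a library was not given. Samples were numbered 1 to 3 in each group and are described as pairs of knockout and littermate hearts.

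In nonmuscle cells, and in heart muscle cells before and while their sarcomeres form, actin filaments are built from the cytoplasmic beta and gamma actins and pulled together by nonmuscle myosin II, a motor made of paired heavy chains with essential and regulatory light chains. Alpha-actinins and filamins link the filaments to each other, tropomyosins coat them, thymosin beta 4 keeps actin monomers in reserve and cofilin severs old filaments. In the heart these proteins work beside another set encoded by separate genes, the sarcomeric actins, myosins and alpha-actinin, and the same nonmuscle set is abundant in endothelium, blood cells and platelets.

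The paired genes of this system differ more in their DNA than in their protein, which bears on how well short reads tell them apart. The first 60 coding bases of the cytoplasmic actins are shown for that reason, read from GENCODE M21 transcripts, with capitals in *Actg1* at the 9 bases that differ from *Actb*.
Actb: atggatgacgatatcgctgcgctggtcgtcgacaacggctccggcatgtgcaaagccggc
Actg1: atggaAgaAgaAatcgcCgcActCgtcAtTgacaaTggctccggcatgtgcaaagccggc
Over the whole coding sequence 128 of 1125 bases differed between *Actb* and *Actg1* (88.6% identity), while 4 of 375 residues did. The longest run of bases shared by both genes was 62. *Actb* and the cardiac actin *Actc1* were 83.0% identical over the same length and differed at 23 residues. *Actb* lies on chromosome 5 (GRCm38 chr5:142903115-142906754, minus strand) and *Actg1* on chromosome 11 (chr11:120345690-120348542, minus strand).

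Thymosin beta 4 and thymosin beta 10 are sister peptides that bind actin monomers, and they are shown whole because their genes gave different values below. Capitals in *Tmsb10* mark the 40 of 132 coding bases that differ from *Tmsb4x*, and 11 of the 44 residues differ.
Tmsb4x: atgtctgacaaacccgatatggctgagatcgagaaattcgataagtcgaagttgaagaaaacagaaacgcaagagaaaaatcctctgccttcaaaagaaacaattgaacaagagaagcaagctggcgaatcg
Tmsb10: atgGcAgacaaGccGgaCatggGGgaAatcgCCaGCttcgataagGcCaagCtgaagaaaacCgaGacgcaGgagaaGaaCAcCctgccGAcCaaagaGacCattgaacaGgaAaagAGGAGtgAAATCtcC
*Tmsb4x* lies on the X chromosome (chrX:167207093-167209315, minus strand).

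Libraries held 19208859 to 23123255 estimated counts, and 16048 genes passed the filter on low counts, all 10 listed genes among them. Levels are given below as CPM, read counts scaled to a common library size after normalisation between libraries. *Flnc* itself, the targeted gene, was at 844, 623 and 746 CPM in the controls and at 127, 111 and 240 CPM in FlncgKO, a log2 fold change of -2.21 ± 0.35 (SE) that is 4.63-fold lower, with no overlap between groups. Its adjusted p was 0.0656 by edgeR, 0.0011 by edgeR without FlncgKO 3 and 1.1e-06 by DESeq2. Summed over 10 markers of platelets and megakaryocytes, libraries held 20.9 to 30.3 CPM in the controls and 706, 439 and 112 CPM in FlncgKO 1, 2 and 3. Each of these 10 markers was above every control in every FlncgKO library, as were 15.7% of all genes tested. None passed the edgeR threshold of 0.05, whereas 4 did with a block for the replicate number and 10 did by DESeq2. Of all genes tested, 1.06% were called higher by edgeR, 3.19% with the block and 6.17% by DESeq2. The sum of 4 Y-linked genes was 117 to 140 CPM in the controls and 80.7, 3.88 and 4.28 CPM in FlncgKO 1, 2 and 3, and the labels give no sex. In whole hearts, a larger number of cells of a type and more RNA per cell cannot be told apart.

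The cytoplasmic actins were the most abundant of the 10 genes and were higher in every FlncgKO library than in any control. *Actb*, the beta actin of nearly all cells, was at 1143, 1146 and 1272 CPM in control 1, 2 and 3 and at 1875, 1746 and 1649 CPM in FlncgKO 1, 2 and 3. *Actg1*, the gamma actin, was at 1030, 1039 and 1250 CPM in the controls and at 1770, 1764 and 1706 CPM in FlncgKO. Control 3 was the highest control for both genes, and FlncgKO 3 was the lowest knockout library, yet a clear gap remained between them. The log2 fold changes were 0.57 ± 0.069 (SE) for *Actb* and 0.66 ± 0.081 for *Actg1*, or 1.48-fold and 1.58-fold. The ratio of *Actb* to *Actg1* in TPM, a level per transcript length, was 1.09 ± 0.0495 (SD, n = 3) in the controls and 1.03 ± 0.0523 (n = 3) in FlncgKO, with overlapping libraries, so no shift from either cytoplasmic actin to the other was seen beyond the spread.

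The heavy chains of nonmuscle myosin II gave unlike values. *Myh9*, the heavy chain of nonmuscle myosin IIA (chr15:77760587-77842175, minus strand), was at 343, 359 and 373 CPM in the controls and at 684, 631 and 564 CPM in FlncgKO. *Myh10*, the heavy chain of nonmuscle myosin IIB and the form known for its abundance in embryonic heart muscle (chr11:68691559-68816632, plus strand), was at 668, 699 and 623 CPM in the controls and at 662, 748 and 752 CPM in FlncgKO. All 3 FlncgKO libraries lay above the controls for *Myh9*, while FlncgKO 1 lay inside the control range for *Myh10*. The log2 fold change was 0.80 ± 0.075 (SE), or 1.75-fold, for *Myh9* and 0.12 ± 0.069 for *Myh10*. In TPM summed over all transcripts the ratio of *Myh9* to *Myh10* was 0.323, 0.317 and 0.360 in the controls and 0.659, 0.516 and 0.473 in FlncgKO. Of the TPM of the nonmuscle heavy chains *Myh9*, *Myh10* and *Myh14* together, *Myh9* held 25.0% ± 1.30 (SD, n = 3) in the controls and 35.2% ± 4.01 (n = 3) in FlncgKO. These TPM values include a short non-coding transcript of *Myh10*, described with the transcripts below. Over coding transcripts alone, a setting added after the data were seen, the ratio of *Myh9* to *Myh10* was 0.545, 0.549 and 0.650 in the controls and 1.09, 0.914 and 0.784 in FlncgKO. On that measure *Myh9* was above *Myh10* in FlncgKO 1 and below it in the other libraries. *Myh14*, the third heavy chain, was scarce, at 1.06 to 1.24 CPM in the controls and 0.894 to 4.22 CPM in FlncgKO.

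*Myl12a*, a regulatory light chain whose phosphorylation switches nonmuscle myosin II on (chr17:70993656-71002878, minus strand), was at 239, 237 and 242 CPM in the controls and at 296, 292 and 275 CPM in FlncgKO. The controls lay within a narrow range, and every FlncgKO library was above it, by 0.27 ± 0.047 (SE) on the log2 scale. This value is uncertain, since *Myl12b*, a near-identical gene beside it, overlaps it in the annotation. The 3 loci with at least 95% identity to *Myl12a* over at least 200 bases summed to as much as 67.1% of the *Myl12a* level. Adding their counts to those of *Myl12a* gave 382, 395 and 398 CPM in the controls and 460, 452 and 436 CPM in FlncgKO, again with no overlap. For the other 9 genes such copies were pseudogenes at no more than 0.193 CPM or were not found.

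Among the crosslinkers and filament coating proteins, *Actn4* differed more than *Actn1* and *Tpm4*. *Actn4*, a nonmuscle alpha-actinin (chr7:28893248-28962340, minus strand), was at 385, 383 and 378 CPM in the controls and at 497, 530 and 470 CPM in FlncgKO. *Actn1*, the other nonmuscle alpha-actinin, found in adhesions and stress fibres (chr12:80167547-80260371, minus strand), was at 383, 387 and 376 CPM in the controls and at 441, 432 and 412 CPM in FlncgKO. Both were thus at nearly the same CPM in the controls, and their groups did not overlap. The log2 fold changes were 0.39 ± 0.054 (SE) for *Actn4* and 0.16 ± 0.046 for *Actn1*. In TPM, *Actn4* over *Actn1* was 1.20 ± 0.0273 (SD, n = 3) in the controls and 1.32 ± 0.0926 (n = 3) in FlncgKO. *Tpm4*, a tropomyosin of nonmuscle filaments (chr8:72134975-72153142, plus strand), was at 385, 397 and 433 CPM in the controls and at 498, 462 and 438 CPM in FlncgKO. FlncgKO 3 lay barely above control 3 for *Tpm4*, a gap of 0.017 on the log2 scale, and the log2 fold change was 0.20 ± 0.067 (SE).

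Of the genes for actin monomer binding and filament turnover, *Tmsb4x* was higher in FlncgKO while *Cfl1* overlapped between groups. *Tmsb4x*, which holds actin monomers in reserve, was at 193, 223 and 225 CPM in the controls and at 430, 400 and 321 CPM in FlncgKO, a log2 fold change of 0.84 ± 0.118 (SE) or 1.79-fold. This was the highest fold change of the 10 genes, and its highest and lowest FlncgKO libraries were 430 and 321 CPM. Its sister gene *Tmsb10*, chosen for mention after its values were seen, was at 174 to 194 CPM in the controls and 181 to 189 CPM in FlncgKO. *Cfl1*, the nonmuscle cofilin that severs filaments (chr19:5490455-5495201, plus strand), was at 775, 797 and 778 CPM in the controls and at 829, 722 and 737 CPM in FlncgKO. The *Cfl1* groups overlapped, FlncgKO 1 above and the other FlncgKO libraries below the controls, with a log2 fold change of -0.04 ± 0.062 (SE). The ratio of *Tmsb4x* to *Cfl1* in TPM was 0.751 ± 0.0377 (SD, n = 3) in the controls and 1.38 ± 0.163 (n = 3) in FlncgKO.

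**Figure D1:**
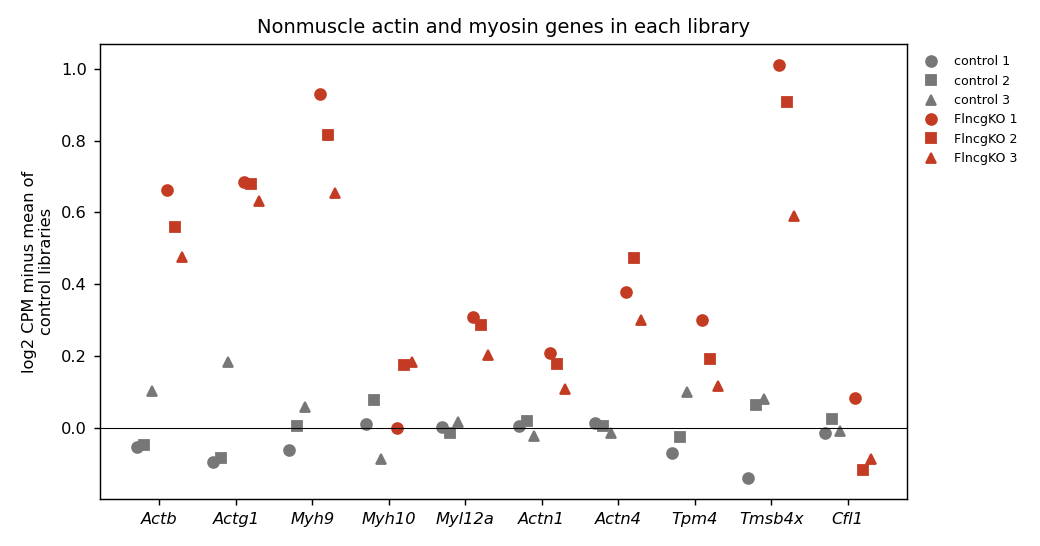
Level of each of the 10 genes in each library, as log2 CPM minus the mean of the 3 control libraries (vertical axis, log2 units). Grey symbols are control and red symbols FlncgKO libraries 1 to 3 (circle, square, triangle). For 8 genes every red symbol is above every grey one, and for *Myh10* and *Cfl1* they overlap.

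The libraries of the knockout group had a common order. FlncgKO 1 was highest and FlncgKO 3 lowest for *Actb*, *Actg1*, *Actn1*, *Myh9*, *Myl12a*, *Tmsb4x* and *Tpm4*, which is 7 of the 10 genes. The share of all genes with this order was not computed. *Actn4* was highest in FlncgKO 2 and lowest in FlncgKO 3, while *Myh10* ran the other way, from 662 CPM in FlncgKO 1 to 752 CPM in FlncgKO 3. The platelet marker sum had the same order as the 7 genes, at 706, 439 and 112 CPM, and the part of platelet RNA in these values was not tested. That sum was lowest of the group in FlncgKO 3, yet its 112 CPM there was above the highest control at 30.3 CPM. In the same library *Actb* was at 1649 CPM, *Actg1* at 1706 CPM, *Myh9* at 564 CPM and *Tmsb4x* at 321 CPM, each above its highest control.

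The markers of other blood and heart cells were also measured beside these genes. Markers of leukocytes and macrophages summed to 31.8 to 50.4 CPM in the controls and 59.4 to 70.2 CPM in FlncgKO. Of 9 such markers 6 were tested and 3 passed by edgeR, namely *Itgb2*, *Coro1a* and *Vav1*, genes of blood cells in general. Of all genes tested, edgeR called 1.06% higher and 0.249% lower. The pan-leukocyte gene *Ptprc* stayed between 0.0965 and 3.49 CPM in all libraries, and the macrophage gene *Adgre1* reached at most 0.179 CPM. Erythroid markers summed to 2614 to 7391 CPM in the controls and 6461 to 10105 CPM in FlncgKO. The sums of markers of endothelium and endocardium (842 to 1012 against 906 to 1118 CPM) and of cardiomyocytes (37863 to 42708 against 34374 to 40449 CPM) overlapped between groups. Single markers differed in sign. The 8 of endothelium had log2 fold changes from -0.58 to 1.24, with 1 called higher by edgeR and 3 higher and 2 lower by DESeq2. The 12 of cardiomyocytes ran from -0.43 to 0.35, with 0 called by edgeR and 1 higher and 1 lower by DESeq2. DESeq2 called 6.17% of all genes tested higher and 2.29% lower. Cardiomyocyte markers were abundant in every library. The sums of markers of epicardium and mesenchyme (338 to 389 against 374 to 576 CPM) and of surface ectoderm and epithelium (129 to 282 against 246 to 512 CPM) overlapped too and were highest in FlncgKO 3. The 8 of epicardium and mesenchyme ran from -0.87 to 2.34 in log2 fold change, with 0 called by edgeR and 1 higher by DESeq2. The part of these cells in the values of the 10 genes was not tested.

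In the edgeR fit across all 16048 genes, 6 of the 10 genes were past an adjusted p of 0.05 and higher in FlncgKO (*Actb*, *Actg1*, *Actn4*, *Myh9*, *Myl12a* and *Tmsb4x*, adjusted p 0.0212 to 0.0474), and none was lower. Of all genes tested, 1.06% were called higher and 0.249% lower. The list was chosen on this contrast, so nothing is read from these shares. For 8 of the 10 genes all FlncgKO libraries were above all controls, as they were for 15.7% of all genes. The median log2 fold change was 0.33 over the 10 genes and 0.01 over all genes. Neither *Actn1* nor *Tpm4* was called by edgeR (adjusted p 0.102 and 0.137).

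With a block for the replicate number, by which same-numbered samples were found to vary together, 5 of the 10 genes were called higher, against 3.19% of all genes higher and 0.748% lower. *Tmsb4x* was the gene that was lost, with an adjusted p of 0.0518 by edgeR with the block. By DESeq2 7 of the 10 were called higher, *Actn1* being the added gene, against 6.17% of all genes higher and 2.29% lower. The edgeR calls depended on single libraries: without control 1, or without control 2, 0 of the 10 genes were called, and 7 had an unadjusted p under 0.05 in each of these fits. In each of those fits 1 gene of the whole table was called, while DESeq2 without the same control called 6 of the 10. Over the whole table, DESeq2 without control 1 called 562 genes higher and 128 lower of 16520. Without control 2 it called 569 higher and 128 lower of 16630. With the Y-linked sum as a covariate 0 of the 10 genes were called by edgeR, 8 had an unadjusted p under 0.05, and 0 genes of the whole table passed. Without control 3 the count was 3, without FlncgKO 1 or FlncgKO 2 it was 1, and without FlncgKO 3 it was 6. Over the whole table these fits called 110, 34, 38 and 1272 genes, against 170 higher and 40 lower with all libraries. No share over all genes is given for the unadjusted p. With each library left out by edgeR, the median log2 fold change of the 10 genes lay between 0.30 and 0.36. With the Y-linked covariate *Myh10* and *Cfl1* changed sign, to -0.027 and 0.11, while *Myh9* was at 0.96 and *Tmsb4x* at 1.05.

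**Figure D2:**
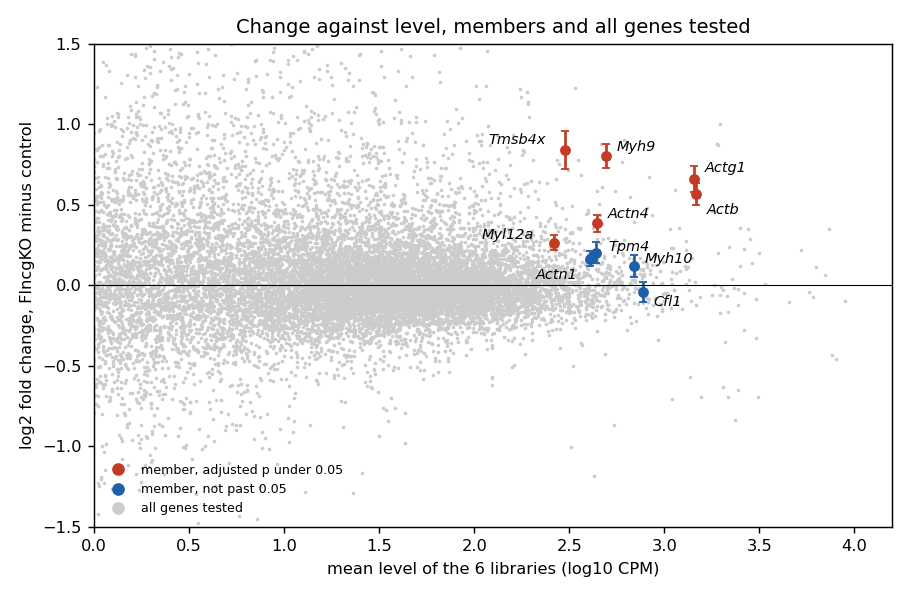
Log2 fold change of FlncgKO minus control (vertical axis) against mean level of the 6 libraries (horizontal axis, log10 CPM) for all genes tested (light grey) and the 10 listed genes, with bars of 1 standard error. The 6 red genes passed an edgeR adjusted p of 0.05 and the 4 blue ones did not, and 1975 genes, most of them at low level, lie outside the plotted range.

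Levels can be compared between genes only per length, as TPM. In the controls the order was *Actb* (1212 ± 70.9 TPM, SD, n = 3), *Actg1* (1113 ± 118), *Cfl1* (953 ± 7.66), *Tmsb4x* (716 ± 34.3), *Myl12a* (455 ± 18.4), *Tpm4* (348 ± 15.1), *Actn4* (215 ± 2.08), *Actn1* (179 ± 4.03), *Myh10* (172 ± 7.69) and *Myh9* (57.4 ± 1.37). *Actb* and *Actg1*, and likewise *Actn1* and *Myh10*, were neighbours whose control libraries overlapped. In FlncgKO, *Tmsb4x* at 1303 ± 213 TPM (n = 3) stood above *Cfl1* at 939 ± 67.1 TPM and next after *Actb* at 1742 ± 131 TPM and *Actg1* at 1686 ± 56.4 TPM. *Myh9* remained the lowest of the 10 genes in mean TPM over all transcripts, at 103 ± 10.7 TPM.

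Set against the muscle actins, the cytoplasmic actins made up a larger share of actin RNA in FlncgKO. *Actc1*, the cardiac alpha actin, was at 11350, 11878 and 11351 TPM in the controls and 11715, 11224 and 9651 TPM in FlncgKO. *Acta2*, the smooth muscle alpha actin that embryonic heart muscle also makes, was at 2702, 2548 and 2472 TPM in the controls and 2700, 2476 and 2249 TPM in FlncgKO. *Acta1*, the skeletal alpha actin, was at 783, 779 and 724 TPM in the controls and 853, 942 and 812 TPM in FlncgKO. *Actc1* and *Acta2* overlapped between groups, and *Acta1* did not. By edgeR none of these 3 genes was called, with log2 fold changes of -0.10 ± 0.079 (SE) for *Actc1*, -0.08 ± 0.070 for *Acta2* and 0.17 ± 0.055 for *Acta1* (adjusted p 0.515, 0.526 and 0.128). The smooth muscle gamma actin *Actg2* was at no more than 5.09 TPM in any library.

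*Actb* and *Actg1* together held 13.1%, 12.6% and 14.9% of the TPM of the 6 actin genes in control 1, 2 and 3, and 18.9%, 19.3% and 20.2% in FlncgKO 1, 2 and 3. The mean was 13.5% ± 1.19 (SD, n = 3) in the controls and 19.5% ± 0.674 (n = 3) in FlncgKO, a difference of 5.94 points, with no overlap. The share was highest in FlncgKO 3, the library with the lowest *Actb* and *Actg1* of the knockout group, and *Actc1* was lowest there as well. Total actin TPM was 17192 ± 185 in the controls and 17639 ± 1513 in FlncgKO and overlapped. The alpha-actinins gave a smaller difference of the same sign: *Actn1* and *Actn4* held 47.9% ± 1.67 (SD, n = 3) of the actinin TPM that they share with the muscle genes *Actn2* and *Actn3* in the controls, and 52.9% ± 1.21 (n = 3) in FlncgKO.

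**Figure D3:**
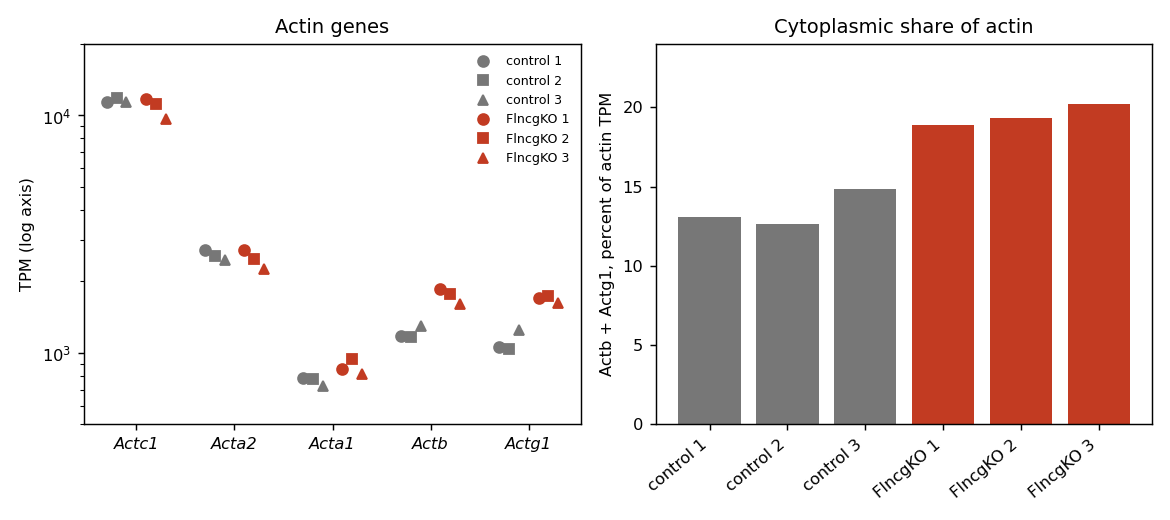
Left, TPM of the muscle actins *Actc1*, *Acta2* and *Acta1* and of the cytoplasmic actins *Actb* and *Actg1* in each library (log axis, symbols by library). Right, share of *Actb* and *Actg1* in the TPM of the 6 actin genes as bars from 0, in percent, 12.6 to 14.9 in the grey control libraries and 18.9 to 20.2 in the red FlncgKO libraries.

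The listed genes were chosen on sums over transcripts, and a transcript that holds most of its gene makes up most of that sum. Its share is thus not independent of the choice, and the shares and their p-values are given as a description. Of 17 transcripts that held at least 10% of their gene in any library, 5 had shares that did not overlap between groups. The same count over transcripts of all genes was not made, so nothing is read from it. Each of these 5 had an exact two-sided permutation p of 0.1, the smallest that 3 against 3 libraries can give, and 0.34 after Benjamini-Hochberg adjustment over the 17. *Actb-201*, the full-length coding transcript, held 82.6% ± 0.518 (SD, n = 3) of *Actb* TPM in the controls and 88.2% ± 0.784 (n = 3) in FlncgKO. *Actg1-202*, the main full-length coding transcript of *Actg1*, held 81.1% ± 2.44 in the controls and 88.5% ± 1.09 in FlncgKO. In both cytoplasmic actin genes, therefore, the share of the main messenger was higher in each FlncgKO library than in each control.

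The non-coding transcripts of the cytoplasmic actin genes did not share the difference. Summed over the 5 transcripts with an annotated coding sequence, *Actb* was at 1009, 984 and 1092 TPM in the controls and 1667, 1614 and 1449 TPM in FlncgKO. Its 4 transcripts with no coding sequence, such as retained introns, were at 172, 178 and 201 TPM in the controls and 188, 157 and 150 TPM in FlncgKO. The 6 coding transcripts of *Actg1* summed to 956 ± 95.3 TPM (SD, n = 3) in the controls and 1545 ± 68.4 TPM (n = 3) in FlncgKO, and its 3 others to 157 ± 22.9 and 141 ± 13.4 TPM. The coding sums were thus separated and the non-coding sums overlapped in both genes. For *Myh9* both kinds were higher, the non-coding transcripts being at 2.05 ± 0.0462 TPM in the controls and 4.53 ± 0.773 TPM in FlncgKO.

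**Figure D4:**
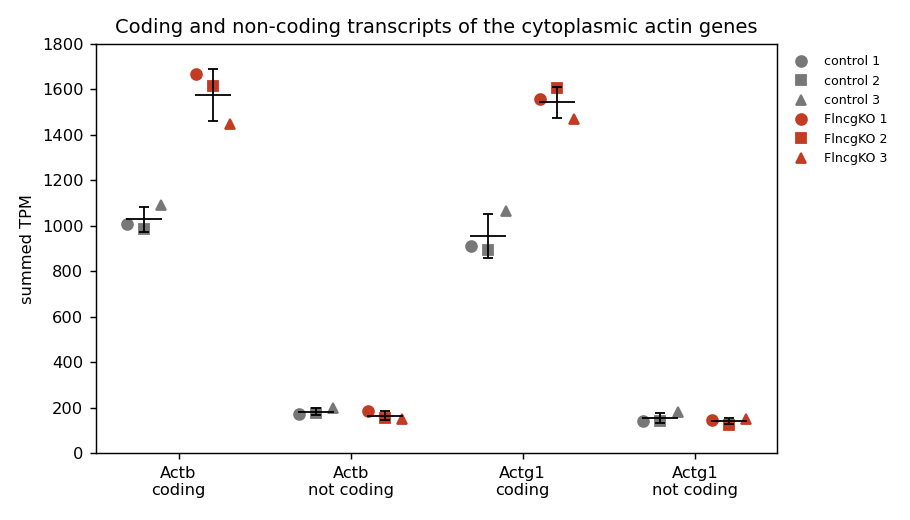
Summed TPM of coding and non-coding transcripts of *Actb* and *Actg1* in each library (symbols), with the mean and SD of each group of 3 (black bar and whiskers). Coding sums are 984 to 1092 TPM in control and 1449 to 1667 TPM in FlncgKO for *Actb*, and the non-coding sums of the groups overlap for both genes.

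The alpha-actinins held the other transcripts whose shares did not overlap between groups. Shares of transcripts of the same gene depend on each other. *Actn1-201* held 40.2% ± 1.56 (SD, n = 3) of *Actn1* in the controls and 42.6% ± 0.924 (n = 3) in FlncgKO, and *Actn1-202*, which encodes a protein of nearly the same length, held 48.0% ± 1.86 and 45.1% ± 0.607. *Actn4-202*, a shorter coding transcript, held 25.8% ± 0.680 of *Actn4* in the controls and less in every FlncgKO library, with a difference between means of -3.86 points. In the remaining genes the share of the main transcript overlapped between groups: *Myh9-201* held 96.1% and 95.6%, *Tmsb4x-201* 97.5% and 97.6%, *Myl12a-208* 86.0% and 86.9%, and *Cfl1-201* 77.7% and 77.9% in controls and FlncgKO. *Myh10* was unlike the rest in that a non-coding transcript, *Myh10-206*, held 41.7% of its TPM in both groups, beside 55.1% and 56.1% for the coding *Myh10-203*. TPM is a level per length and *Myh10-206* is short. By estimated counts it held 9.93% in the controls and 9.89% in FlncgKO, and *Myh10-203* held 89.3% and 89.6%.

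The wider cytoskeleton was described with 95 further genes listed by role, all of which were tested. By edgeR 3 were called higher (3.16%, against 1.06% of all genes tested) and 0 lower. In every FlncgKO library 25 genes were higher and 5 lower than in any control, against 2512 higher and 2258 lower of all 16048 genes. Of the 95 log2 fold changes 74 were positive, against 8286 of 16048 over all genes, and their median was 0.10 against 0.01. The count of 3 became 6 with the replicate block, where 3.19% of all genes were called higher. By DESeq2 it was 10 higher and 1 lower, against 6.17% and 2.29% of all genes. By edgeR without control 1 or without control 2 it was 0, and 1 gene of the whole table was called in each of those fits. Without FlncgKO 3 it was 12 higher and 1 lower by edgeR, against 989 higher and 283 lower of 16350 genes.

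The genes called were filament crosslinking or bundling proteins, and the values of *Flna* and *Tagln2* are given. *Flna*, the filamin of most nonmuscle cells, was at 746, 731 and 722 CPM in the controls and at 1019, 1029 and 933 CPM in FlncgKO, with a log2 fold change of 0.44 ± 0.054. *Tagln2*, a transgelin that bundles actin, was at 133, 165 and 153 CPM in the controls and at 254, 268 and 252 CPM in FlncgKO, with a log2 fold change of 0.78 ± 0.080. Both had an adjusted p of 0.0310 by edgeR, and in both the groups did not overlap.

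No other role had a gene past the threshold by edgeR, and for each the gene with the smallest p is given. Among the 4 other nonmuscle myosin II subunits it was *Myl12b*, a regulatory light chain, at 0.24 ± 0.070 (log2 fold change ± SE, adjusted p 0.104 by edgeR), which shares the uncertainty of *Myl12a*. *Myl9* and *Myl6*, the other light chains, overlapped between groups, at 721 to 878 against 692 to 808 CPM and at 676 to 719 against 661 to 760 CPM. Among 13 activators of myosin II and phosphatase subunits it was the GTPase *Rhoc*, at 0.29 ± 0.067 (adjusted p 0.0778 by edgeR and 0.0394 with the replicate block). Among 19 genes of the Arp2/3 complex and its WAVE activators, which make branched filaments, it was *Wasf2* at 0.17 ± 0.051 (edgeR adjusted p 0.111). Among 12 formins and Ena/VASP genes, which extend straight filaments, it was *Vasp* at 0.30 ± 0.062 (edgeR adjusted p 0.0648).

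The remaining roles held no gene called by edgeR either. Among 15 genes of monomer binding and turnover the smallest p was that of *Cfl2*, the muscle cofilin, at -0.16 ± 0.048 (edgeR adjusted p 0.115), with FlncgKO below control in every library. Among 10 capping and severing genes it was the tropomodulin *Tmod3* at 0.31 ± 0.061 (edgeR adjusted p 0.0570), and among 4 other tropomyosins and caldesmon it was *Cald1* at 0.32 ± 0.116 (edgeR adjusted p 0.177). SRF, with its actin-sensing coactivators of the MRTF family, is the transcription factor best known for driving actin genes. Of these 3 genes the smallest p was that of *Mrtfa*, at 28.3, 27.9 and 28.0 CPM in the controls and 37.7, 32.4 and 35.0 CPM in FlncgKO, with a log2 fold change of 0.32 ± 0.072 (edgeR adjusted p 0.0725). *Srf* overlapped between groups, at 116 to 125 CPM in the controls and 117 to 133 CPM in FlncgKO. Of 10 sarcomeric counterparts none was called by edgeR. The smallest p was that of *Myh6*, the alpha heavy chain of cardiac myosin, at 8593, 9165 and 8509 CPM in the controls and 7708, 6243 and 5510 CPM in FlncgKO, a log2 fold change of -0.43 ± 0.119, not past the threshold by edgeR. By DESeq2 *Myh6* (adjusted p 0.0024) was lower past the threshold, and *Myl12b* (0.0481), *Rhoc* (0.0091), *Vasp* (0.0025), *Tmod3* (0.0074) and *Mrtfa* (0.0347) were higher past it. Of the 10 sarcomeric counterparts DESeq2 called 1 higher and 1 lower, against 6.17% and 2.29% of all genes. With the replicate block 1 was called higher and 0 lower, against 3.19% and 0.748% of all genes.

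**Figure D5:**
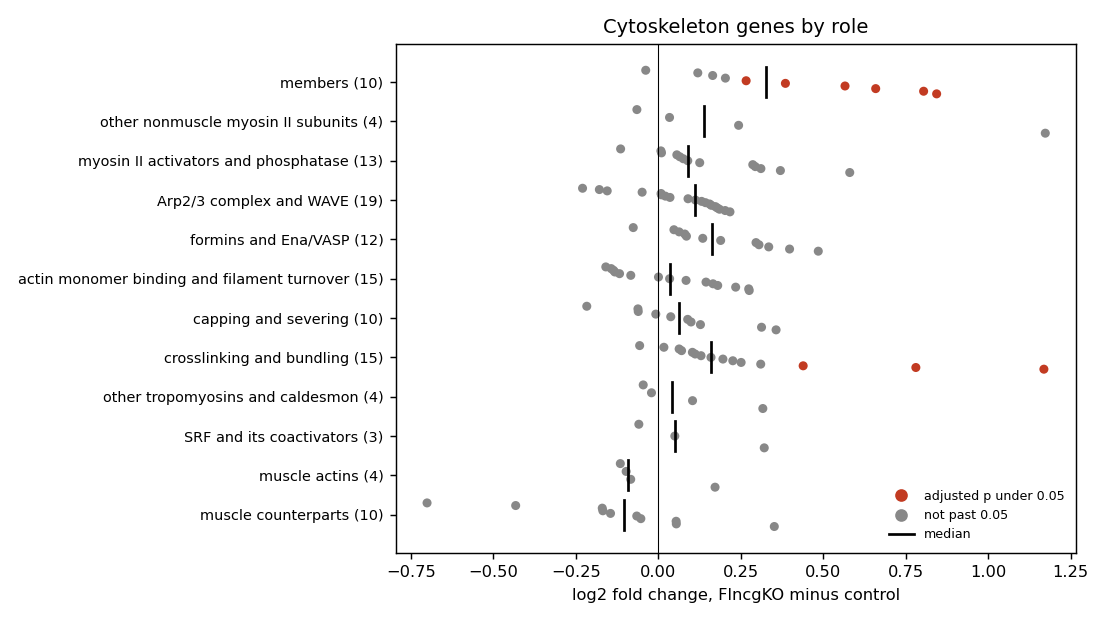
Log2 fold change of FlncgKO minus control (horizontal axis) for the 10 listed genes (top, labelled members) and for the other cytoskeleton and muscle genes by role, with the number of genes in brackets and the median of each role as a black line. Red points passed an edgeR adjusted p of 0.05, 6 of the 10 listed genes and 3 crosslinking and bundling genes.

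Because SRF acts through the CArG box, its known DNA site, the promoters of these genes were searched for it. In the RefSeq promoters of build GRCm38.p6, 250 bases before to 50 after each start, 535 of 32851 held a CArG box on either strand (1.63%). A promoter was matched for 9 of the 10 genes, *Actb* being the missing entry, and 1 of the 9 held the box, that of *Actg1*. The other cytoskeleton genes had 110 promoters, of which 5 held it (those of *Myl9*, *Arpc4*, *Cnn2*, *Myl6* and *Srf*). The *Actg1* box lies 90 bases before its RefSeq start and is shown in capitals with the bases around it. Beside it are those of the muscle actins *Actc1* and *Acta1*, 47 and 73 bases before their RefSeq starts. The GENCODE span given above for *Actg1* begins further upstream than this RefSeq start, so the stretch shown reaches into that span.
Actg1 (chr11:120348531-120348630, minus strand): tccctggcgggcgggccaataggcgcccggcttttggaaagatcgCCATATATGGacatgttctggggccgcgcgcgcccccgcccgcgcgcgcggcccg
Actc1 (chr2:114052876-114052967, minus strand): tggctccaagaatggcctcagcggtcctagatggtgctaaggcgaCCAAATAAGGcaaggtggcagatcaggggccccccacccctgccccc
Acta1 (chr8:123894794-123894893, minus strand): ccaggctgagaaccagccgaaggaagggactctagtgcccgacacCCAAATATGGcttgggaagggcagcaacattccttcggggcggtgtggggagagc
A match in these letters is a description of the sequence only, and the genes with a box gave unlike values. The FlncgKO libraries were above the controls for *Actg1*, *Acta1*, *Arpc4* and *Cnn2*, of which edgeR called *Actg1* alone, and the groups overlapped for *Actc1*, *Myl9*, *Myl6* and *Srf*.

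The genes whose levels followed the mean of the 10 genes most closely were found over the 6 libraries among 9799 other genes of at least 10 CPM on average. Pearson's r of log2 CPM was 0.995 for the long non-coding RNA *Gm29562*, 0.993 for the tubulin gene *Tubb6*, 0.993 for the ubiquitin ligase gene *Hace1* and 0.991 for the growth factor gene *Pdgfb*. The 6 points fall into the groups compared, so any gene that differs between them scores high. *Tubb6*, a beta tubulin, was at 82.8, 85.1 and 90.8 CPM in the controls and 126, 123 and 118 CPM in FlncgKO, with a log2 fold change of 0.51 ± 0.058 (SE). *Pdgfb*, a growth factor made by endothelium and platelets, was at 3.61, 4.10 and 3.82 CPM in the controls and 27.0, 27.9 and 15.0 CPM in FlncgKO. Both had an adjusted p of 0.0310 by edgeR. In these 4 genes the FlncgKO libraries lay above the controls.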

How the data were processed

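The authors quantified reads with salmon against GENCODE M22 on GRCm38.p6 and deposited, for each library of a TruSeq stranded mRNA kit, 140658 transcripts with their estimated counts and TPM. Their test was DESeq2 1.22.2. The salmon version is not given in the sources used here. Transcripts were joined to genes through GENCODE M21. Those without a gene (0.37%, with 0.108% to 0.131% of counts) were left out. The deposited estimated counts were summed per gene, rounded and tested with edgeR 4.0.16 in R 4.3.3 (robust quasi-likelihood, TMM, filterByExpr with a minimum of 10 counts, Benjamini-Hochberg, threshold 0.05). CPM used TMM scaling. The deposited TPM was summed for comparisons between genes. The script was tested on simulated data. Copies were sought with BLAST+.

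The genes, lists and markers were chosen with earlier results of these data known. Named were the 10 genes, the muscle actins, *Flnc*, every called gene of a list with 5 or fewer, otherwise the smallest p, and the 5 genes with the highest correlation; others are named as chosen later. Some genes this rule names are not reported here. Alternatives were other scalings, filters, DESeq2 1.42.0, a replicate block, a Y-linked covariate, length offsets and each library left out. The labels speak of pairs of littermates, and same-numbered samples deviated together (r = 0.124, 0.574 and 0.622), although control 1 did so more with FlncgKO 2 (0.295). Nothing says whether libraries came from separate embryos or pools, so p-values measure the spread between these samples.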

Additional observations from a re-analysis of the deposited data

How the results depend on the processing

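The 6 genes called by edgeR became 0 with the Y-linked sum as a covariate and 0 to 6 with each library left out by edgeR (6 to 8 by DESeq2), and 4 to 7 under the other settings. The 3 other cytoskeleton genes called became 6 with no filter on low counts, 10 by DESeq2, 6 with the replicate block, 0 with the Y-linked covariate, and 0 to 12 by edgeR or 6 to 19 by DESeq2 with each library left out. Over all genes, the 170 called higher by edgeR became 392 with no filter on low counts and 512 with the replicate block. They became 63 with length offsets and 0 with the covariate. By DESeq2 they were 990. With each library left out they were 1 to 989 by edgeR and 541 to 1303 by DESeq2. The DESeq2 fits without each library were added after the data were seen. The difference in the cytoplasmic share of actin was 7.18 points by estimated counts and 7.25 with *Actc1* as the only muscle actin. With the Y-linked covariate the log2 fold changes of *Myh10* (-0.027), *Cfl1* (0.11), *Actc1* (0.052) and *Acta2* (0.069) changed sign, none of them past the threshold. The cause was not tested in any of these. The median log2 fold change of the 10 genes was 0.29 to 0.36 under all settings. The replicate block lost the call of *Tmsb4x* and changed no other call among the 10 genes. Length offsets left 4 of the 10 called by edgeR. *Actn4* (edgeR adjusted p 0.107) and *Myl12a* (0.0767) were lost there, as was *Flna* (0.0609) outside the list. With 3 libraries a group, the spread between libraries and the counting error were not measured apart. Even the lowest of the 10 genes was at 193 CPM or more.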
